A study of Mus musculus with 2 samples.

Results

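Mest and its neighbour Copg2 were followed across single mouse D3 embryonic stem cell derivatives on day 6 of cardiomyocyte differentiation. These are 2 of the 32285 genes listed in the deposited matrices, found by their symbols, and each symbol matched 1 feature (Mest, ENSMUSG00000051855; Copg2, ENSMUSG00000025607). There was 1 library of Zbtb16 knockout cells (Zbtb16_KO) and 1 library of wild-type D3 cells (Ctrl), and both had been through the same cardiomyocyte differentiation. The labels name Zbtb16 as the deleted gene but give neither the deleted stretch nor the number of clones. The genes were chosen by their counts in these very libraries: Mest for its low level in the knockout, and Copg2 as its neighbour. With 1 library per genotype there is no replicate, so all differences below are descriptions of these libraries, with no test of genotype, and intervals cover counting error only. Cells of 1 library share their source and are not replicates.

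Mest, also called Peg1, encodes an enzyme-like protein of the alpha/beta-hydrolase fold in the endoplasmic reticulum and is abundant in embryonic mesoderm. It is an imprinted gene: the copy inherited from the father is active, while the promoter of the maternal copy is methylated. Copg2 encodes a gamma subunit of coatomer (COPI), the coat of vesicles that move between the Golgi apparatus and the endoplasmic reticulum, and its paralog Copg1 encodes the other gamma subunit. Mest and Copg2 lie tail to tail on opposite strands of mouse chromosome 6 and overlap at their 3′ ends. Klf14, a transcription factor gene expressed from the maternal copy, lies on the far side of Copg2. The counts do not tell parental copies apart. No label or file header states the strand of counting, so reads from the shared 3′ end cannot be told apart between Mest and Copg2.

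The 250 bases before a start site of each gene are shown because the maternal Mest copy is methylated at promoter CpGs while Copg2 has its own promoter. They come from RefSeq on GRCm38.p6, with CG pairs in capitals, 5′ to 3′ on the strand of the gene, at chr6:30737800-30738049 (plus strand) for Mest and chr6:30896795-30897044 (minus strand) for Copg2.
Mest promoter: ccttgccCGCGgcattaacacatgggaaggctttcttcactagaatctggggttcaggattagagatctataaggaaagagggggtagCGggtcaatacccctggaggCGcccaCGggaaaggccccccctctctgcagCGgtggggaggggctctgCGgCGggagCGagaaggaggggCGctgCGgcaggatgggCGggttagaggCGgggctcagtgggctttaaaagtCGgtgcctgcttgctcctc
Copg2 promoter: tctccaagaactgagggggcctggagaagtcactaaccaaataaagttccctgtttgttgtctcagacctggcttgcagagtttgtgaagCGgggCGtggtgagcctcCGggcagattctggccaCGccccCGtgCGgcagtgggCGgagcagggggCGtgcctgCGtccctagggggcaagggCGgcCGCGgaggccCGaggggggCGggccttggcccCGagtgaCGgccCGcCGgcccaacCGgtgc
The Mest window held 14 CG pairs, and 29.4% of 32851 promoter windows of this length held as many or more. The Copg2 window held 19, a number reached by 19.7% of windows. The letters TGCCGC (or GCGGCA on the other strand), the motif that the imprint-protecting factor ZFP57 is known to bind, occurred 2 times before this Mest start and 1 time before Copg2. At least 1 match was found in 8.68% of all windows and at least 2 in 0.874%. A further Mest start listed upstream, at chr6:30733256-30733505 on the plus strand, had 7 CG pairs and 0 such matches.

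After barcodes with at least 15000 UMIs (unique molecular identifiers, counted molecules) and at most 10% mitochondrial UMIs were kept, there were 9449 Zbtb16_KO cells with a median of 30513 UMIs and 6354 Ctrl cells with a median of 37324. The lowest totals kept were 15004 and 15015 UMIs. The libraries shared 16 cell barcodes. Zbtb16 itself stood at 0.994 CPM (counts per 1000000 UMIs of the same cells) in Zbtb16_KO, from 341 UMIs, and at 22.2 CPM in Ctrl, from 6507 UMIs, so it was lower in the library labelled as the knockout.

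Mest summed to 96.0 CPM in Zbtb16_KO (exact 95% Poisson interval 94.97 to 97.04, from 32932 UMIs) and to 1620 CPM in Ctrl (1616 to 1625, from 474005 UMIs). The level was 16.9-fold lower in the knockout, a log2 ratio of -4.06 (Zbtb16_KO over Ctrl, on CPM plus 1). The selection of Mest rests on this gap, which is given as a description. Of 10289 genes at 5 CPM or more in either library, 6.75% lay at least 1.5-fold below Ctrl in Zbtb16_KO and 12.7% at least 1.5-fold above it. Copg2 summed to 64.7 CPM in Zbtb16_KO (63.86 to 65.56, from 22196 UMIs) and to 53.98 CPM in Ctrl (53.14 to 54.82, from 15790 UMIs). That log2 ratio of 0.26 stayed under 1.5-fold, and for the paralog Copg1 the ratio was 0.03, with 83.1 against 81.6 CPM.

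Per cell, Mest was all-or-none in the knockout. In Zbtb16_KO, 84.0% of cells had no Mest UMI, the 90th percentile was 0.301 UMIs per 10000 of the cell (CP10k), the 95th was 0.667 and the 99th was 29.6. The Ctrl cells had no Mest UMI in 7.27%, with a 10th percentile of 0.257, a 25th of 1.82, a median of 11.6, a 75th of 24.1 and a 90th of 34.2 CP10k. Both libraries thus held a heap of cells near 0 and a heap well above it, in opposite proportions. A division at 2 CP10k, set in the trough after the values were seen, called 436 of 9449 Zbtb16_KO cells Mest-high, 4.61% (exact Clopper-Pearson interval 4.2 to 5.06). In Ctrl it called 4733 of 6354 cells Mest-high, 74.5% (73.4 to 75.6). Mest-high is a range of a level, not a cell type. Few knockout cells lay near the division: 20 cells (0.212%) held between 1 and 4 CP10k in Zbtb16_KO, against 637 (10.03%) in Ctrl.

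**Figure D1:**
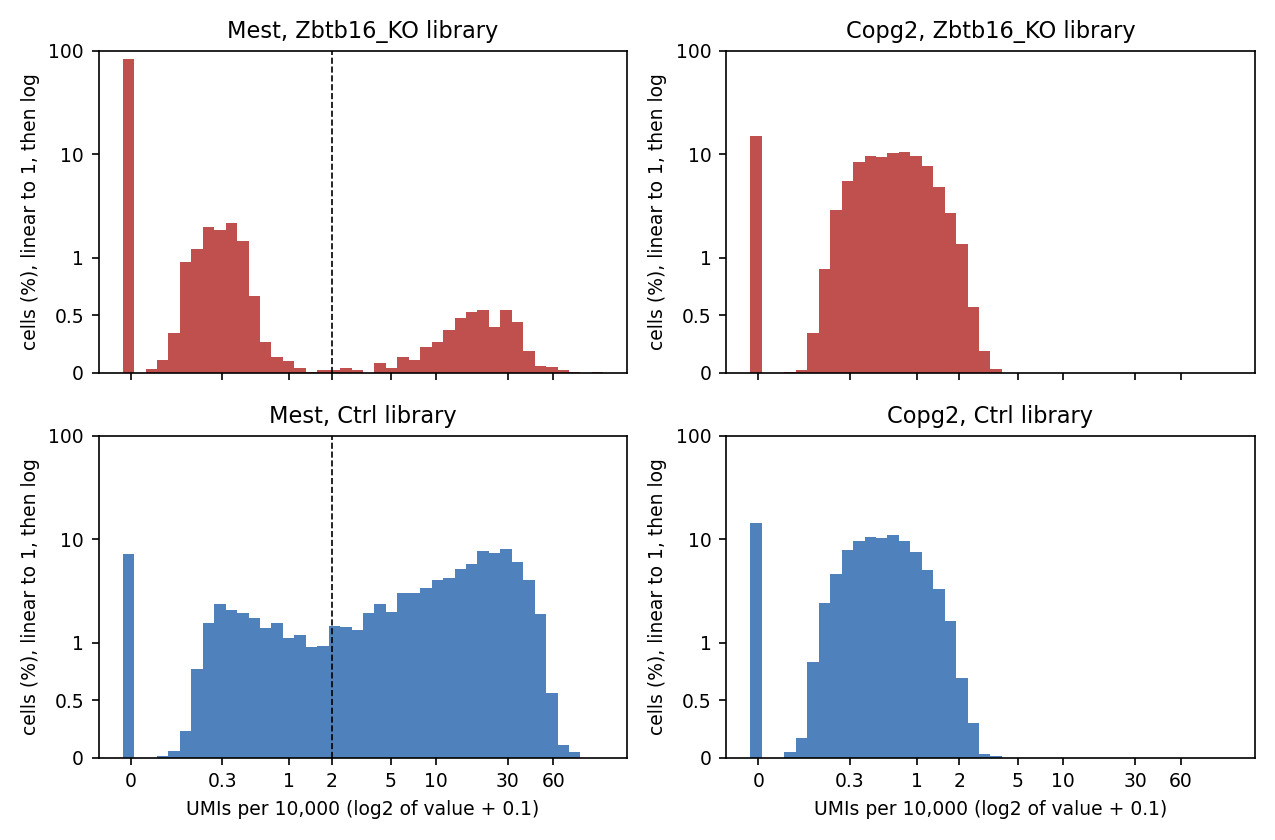
Share of cells (y axis, percent, linear to 1 and logarithmic above) by UMIs per 10000 (x axis, log2 of the value plus 0.1) for Mest on the left and Copg2 on the right, with the Zbtb16_KO library above the Ctrl library and a dashed line at 2 UMIs per 10000. Mest has a separate upper heap of 436 knockout cells with few cells between the heaps, while Copg2 forms 1 hump in both libraries.

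The libraries differed far more in the share of Mest-high cells than in the level within them. Over all Mest-high cells, whose mix of states differed between the libraries, the median was 18.9 CP10k in Zbtb16_KO (quartiles 12.6 and 27.9) and 18.2 CP10k in Ctrl (quartiles 8.95 and 27.9), and the summed levels were 1973 and 2072 CPM. The log2 ratio of the shares of Mest-high cells was -4.01, while that of the level within them was -0.07. Mest-high knockout cells had Zbtb16 at 0.437 CPM, from 7 UMIs, against 1.02 CPM in Mest-low knockout cells, and 0 of the 436 carried a barcode shared with Ctrl. Their median depth was 29969 UMIs against 30534 in Mest-low knockout cells, with 5.09% against 5.01% mitochondrial UMIs. No doublet caller was run. In Ctrl, Mest-high cells were deeper, with a median of 38766 UMIs against 33968 in Mest-low cells, and the part of depth in that split was not tested.

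Mest in Mest-low cells was low beside the level outside cells. It stood at 3.93 CPM in Zbtb16_KO and 45.6 CPM in Ctrl, which is 3.87% and 2.88% of the Mest level in barcodes of 10 to 100 UMIs, taken as free RNA (101.5 and 1585 CPM). For 4 endoderm genes read in mesenchymal-like cells, which should lack them, the same share had a median of 3.17% (0.614 to 10.7) in Zbtb16_KO and 5.75% (3.98 to 23.4) in Ctrl. The Mest-low share lay within that range in Zbtb16_KO and below it in Ctrl. Mest-low cells were held under 2 CP10k by the division, a bound that the endoderm genes did not have. Where the Mest-low share lies beside their range therefore decides nothing. In Ctrl, 579 of the Mest-low cells lay between 0.5 and 2 CP10k, at 99.1 CPM. How much of the Mest in Mest-low cells came from free RNA was not tested.

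To set depth aside, each cell was thinned to 15000 UMIs, which kept all cells. Mest was then at 0 in 90.1% of Zbtb16_KO cells (89.5 to 90.7), although Poisson counting around the mean would leave 21.9% at 0. In Ctrl it was at 0 in 13.8% (12.9 to 14.6), against 2.5e-08% by Poisson counting. The variance of the thinned Mest counts was 40.5 times their mean in Zbtb16_KO and 19.9 times in Ctrl. Copg2 counts lay close to Poisson counting, at a mean of 0.986 UMIs per thinned cell in Zbtb16_KO and 0.848 in Ctrl. Copg2 was at 0 in 38.5% of thinned Zbtb16_KO cells and 44.3% of Ctrl cells, where Poisson counting gives 37.3% and 42.8%. Its variance was 1.07 and 1.08 times its mean. At such low counts, modest differences in level between cells would hardly show. The Copg2 median was 0.580 CP10k in Zbtb16_KO and 0.490 CP10k in Ctrl, and 1 hump described each library.

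Cell states were gated by at least 3 of their markers at 1 CP10k or more. Cells in more than 1 gate were kept as a group of their own, as were cells in none. Nearly all markers of a gate were more than 2 times higher there than in the median of the other states, except Fgf10 in the Ctrl cardiac progenitor gate, Prrx1 and Col14a1 in the Ctrl mesenchymal gate and Trf in the endoderm gate of both libraries. Cells entered a gate by these same markers, so this was largely set by the gating and is no independent check of the state names. Mesenchymal-like cells (collagen and Postn positive) made up 56.5% of Zbtb16_KO cells and 17.7% of Ctrl cells. Cardiomyocyte-like cells (sarcomere genes) made up 1.19% and 20.1%, and cells in several gates 2.02% and 34.1%. Endothelial-like cells were 4.31% and 3.95%, and cells in no gate 30.8% and 20.2%.

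Mest-high cells were a minority in all knockout mesoderm states and a majority in all control ones. Among mesenchymal-like cells, 268 of 5339 were Mest-high in Zbtb16_KO (5.02%, 4.45 to 5.64) and 900 of 1126 in Ctrl (79.9%, 77.5 to 82.2). Endothelial-like cells gave 26 of 407 (6.39%, 4.22 to 9.22) in Zbtb16_KO and 198 of 251 (78.9%, 73.3 to 83.8) in Ctrl. Among cardiomyocyte-like cells, 7 of 112 (6.25%, 2.55 to 12.5) were Mest-high in Zbtb16_KO and 976 of 1274 (76.6%, 74.2 to 78.9) in Ctrl. The 3 shares did not separate within Zbtb16_KO beyond their counting intervals, and neither did the 3 shares within Ctrl. Cells in no gate were Mest-high in 4.26% of Zbtb16_KO cells and 78.4% of Ctrl cells. Posterior mesoderm-like cells, gated in the knockout by Cdx2 and posterior Hox genes, had 2 of 96 Mest-high, and control cardiac progenitor-like cells had 100 of 141 (70.9%). The other library held too few cells of these 2 states to set beside them, with 3 posterior mesoderm-like cells in Ctrl and 13 cardiac progenitor-like cells in Zbtb16_KO.

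The knockout had 0 Mest-high cells in the endoderm-like, pluripotent-like and haematopoietic-like states, while the control had a few in the first 2. Endoderm-like cells had 0 of 178 Mest-high cells in Zbtb16_KO (exact interval 0 to 2.05%) and 9 of 91 (9.89%, 4.62 to 17.9) in Ctrl. The 9 control cells had a median of 4.05 CP10k, and control endoderm-like cells summed to 125 CPM. Pluripotent-like cells had 0 of 171 Mest-high cells in Zbtb16_KO and 3 of 20 in Ctrl, where they summed to 88.4 CPM. Haematopoietic-like cells, of which Ctrl had 0, gave 0 of 30 in Zbtb16_KO. The endoderm-like, pluripotent-like and haematopoietic-like states had 3.40, 4.26 and 4.39 CPM of Mest in Zbtb16_KO, close to the 3.93 CPM of all Mest-low knockout cells.

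In summed levels over states of at least 50 cells, the Ctrl order ran from mesenchymal-like (2241 CPM, interval 2229 to 2254) through endothelial-like (2028), no gate (1946), cardiomyocyte-like (1530), cardiac progenitor-like (1369) and several gates (1168) to endoderm-like cells (125), with no neighbouring intervals overlapping. Among knockout states of that size, endothelial-like cells came highest with 151 CPM (145.9 to 156.8), followed by mesenchymal-like (101.7), no gate (95.4), cardiomyocyte-like (91.3) and several gates (85.5). There the intervals of no gate and cardiomyocyte-like cells overlapped, as did those of cardiomyocyte-like cells and cells in several gates. Of the 3009 Mest UMIs in knockout endothelial-like cells, 2955 came from 26 Mest-high cells. The share of Mest-high cells there, 6.39% (4.22 to 9.22), overlapped that of mesenchymal-like cells, 5.02% (4.45 to 5.64). Intervals of summed UMIs leave out the spread between cells, so they do not settle the order of states in either library. Posterior mesoderm-like knockout cells had 22.3 CPM. The 13 cardiac progenitor-like knockout cells, under that size, had 273 CPM (223 to 332), and 1 of them was Mest-high. The log2 ratio of Zbtb16_KO over Ctrl was -4.45 in mesenchymal-like, -4.34 in no-gate, -4.05 in cardiomyocyte-like, -3.74 in endothelial-like and -4.84 in endoderm-like cells. The cardiomyocyte-like value rests on 7 knockout cells and became -6.00 when the marker level of the gates was doubled to 2 CP10k.

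In mesenchymal-like, endothelial-like and cardiomyocyte-like cells, the summed Mest level within Mest-high cells was lower in the knockout, by less than the shares differed. The counting intervals were apart, but they leave out the spread between cells. Medians per cell were 17.8 CP10k in Zbtb16_KO and 25.9 CP10k in Ctrl for mesenchymal-like Mest-high cells. They were close in endothelial-like (24.5 and 24.6 CP10k) and cardiomyocyte-like Mest-high cells (15.7 and 15.6 CP10k). Mesenchymal-like Mest-high cells stood at 1912 CPM in Zbtb16_KO and 2696 CPM in Ctrl, a log2 ratio of -0.50 beside -3.99 for the shares. Endothelial-like Mest-high cells stood at 1846 and 2471 CPM, which is -0.42 beside -3.63. Cardiomyocyte-like Mest-high cells stood at 1395 and 1884 CPM, which is -0.43 beside -3.62. For cells in no gate the 2 ratios were -0.13 and -4.20, and for cells in several gates the level ran the other way, 0.17 beside -4.08.

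**Figure D2:**
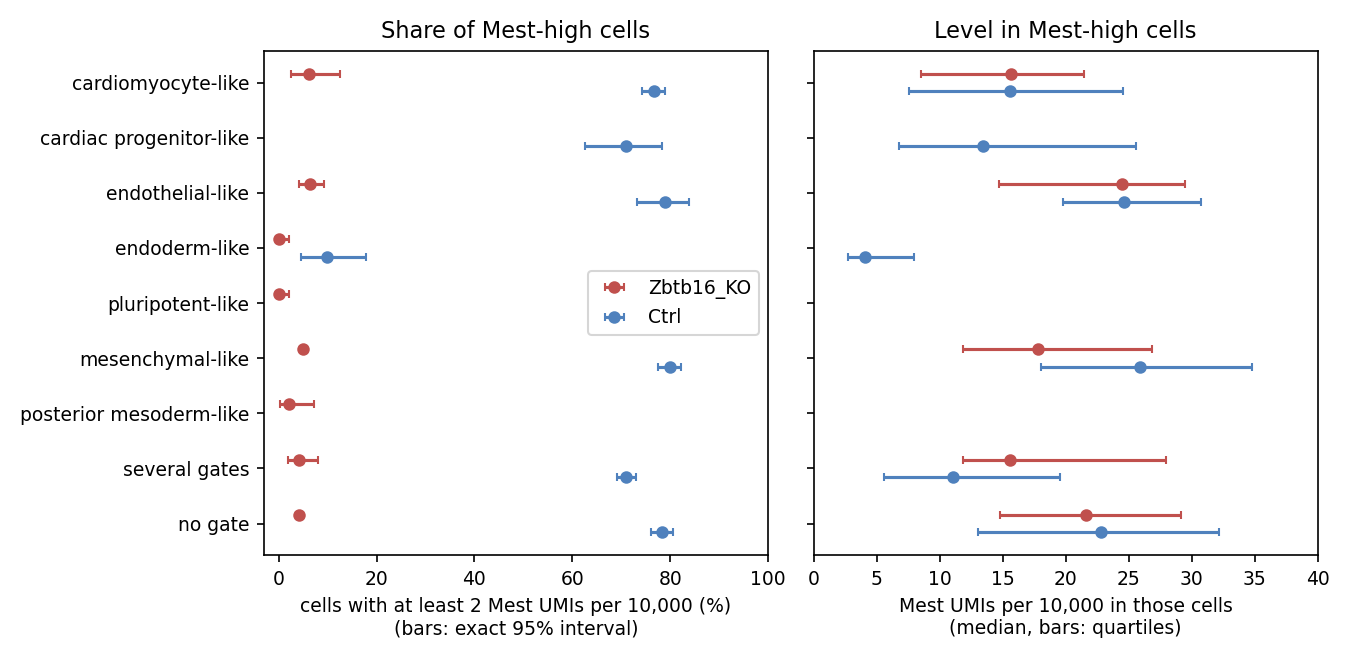
Left, percent of cells with at least 2 Mest UMIs per 10000 in each marker-gated state (bars, exact 95% intervals); right, median Mest UMIs per 10000 in those cells (bars, quartiles); Zbtb16_KO above Ctrl in each state. Shares reach at most 6.39% in the knockout and at least 70.9% in the control mesoderm states, while the medians drawn for Mest-high cells of both libraries lie between 11.1 and 25.9 except for the 9 control endoderm-like cells at 4.05.

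Among control cells the level was graded along the cardiac axis. All Ctrl cells, whatever their gate, were ordered by the summed CP10k of the 8 cardiomyocyte markers and cut into 5 groups of equal size. The groups can thus differ in their mix of states, and a trend within cardiomyocyte-like cells alone was not tested. The share of Mest-high cells, lowest to highest group, was 72.1%, 79.0%, 78.5%, 78.1% and 64.8%. The median Mest within the Mest-high cells was 23.7, 24.0, 20.03, 13.8 and 8.11 CP10k. So most cells with the highest sarcomere RNA still had Mest, at a lower level than the other groups. Median depth was lower there too, at 41436, 40031, 38478.5, 36549 and 30629 UMIs, although CP10k is already per UMI of the cell. Cells near the division were spread accordingly: 17.9% of control cells in several gates and 10.3% of control cardiomyocyte-like cells held 1 to 4 CP10k, against 1.42% of control mesenchymal-like and 2.39% of control endothelial-like cells. In the knockout this band held 11 of 5339 mesenchymal-like cells (0.206%) and 0 of 407 endothelial-like cells. Copg2 went the other way over the 5 control groups, with 47.2, 53.1, 52.8, 56.3 and 62.6 CPM.

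Copg2, the coatomer subunit, was higher in the knockout in most states. Mesenchymal-like cells had 65.8 CPM in Zbtb16_KO and 50.04 CPM in Ctrl (log2 ratio 0.39). Endothelial-like cells had 53.5 and 39.4 CPM (0.43), and cardiomyocyte-like cells 71.5 and 53.95 CPM (0.40). In endoderm-like cells, where Mest was low in both libraries, the counts were 49.4 CPM in Zbtb16_KO and 46.3 CPM in Ctrl (0.09), with overlapping intervals.

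Copg2 was lower in Mest-high than in Mest-low cells of the same library and state. Knockout mesenchymal-like cells had 46.8 CPM of Copg2 when Mest-high (42.5 to 51.4, from 441 UMIs) and 66.8 CPM when Mest-low (65.6 to 68.0), a log2 ratio of -0.50. Of the 6450 genes at 20 CPM or more in either class, 4 were as low or lower, Copg2 included. Control mesenchymal-like cells had 47.5 CPM when Mest-high (45.5 to 49.6) and 62.4 CPM when Mest-low (57.4 to 67.8), a ratio of -0.39 that 14 of 6250 genes reached, Copg2 included. The intervals of the 2 classes did not overlap in either library.

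The same order held in the other states with enough cells. Endothelial-like cells had 31.9 CPM when Mest-high and 55.4 CPM when Mest-low in Zbtb16_KO (-0.78, from 51 UMIs in 26 Mest-high cells). In Ctrl they had 34.2 and 62.9 CPM (-0.86). Control cardiomyocyte-like cells had 49.6 and 72.1 CPM (-0.53). Cells in no gate had 49.5 and 68.5 CPM in Zbtb16_KO (-0.46) and 48.3 and 65.4 CPM in Ctrl (-0.43). The exception was the knockout cardiomyocyte-like gate, where 7 Mest-high cells gave 25 UMIs or 87.9 CPM (56.9 to 130) against 70.4 CPM in 105 Mest-low cells, with overlapping intervals.

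**Figure D3:**
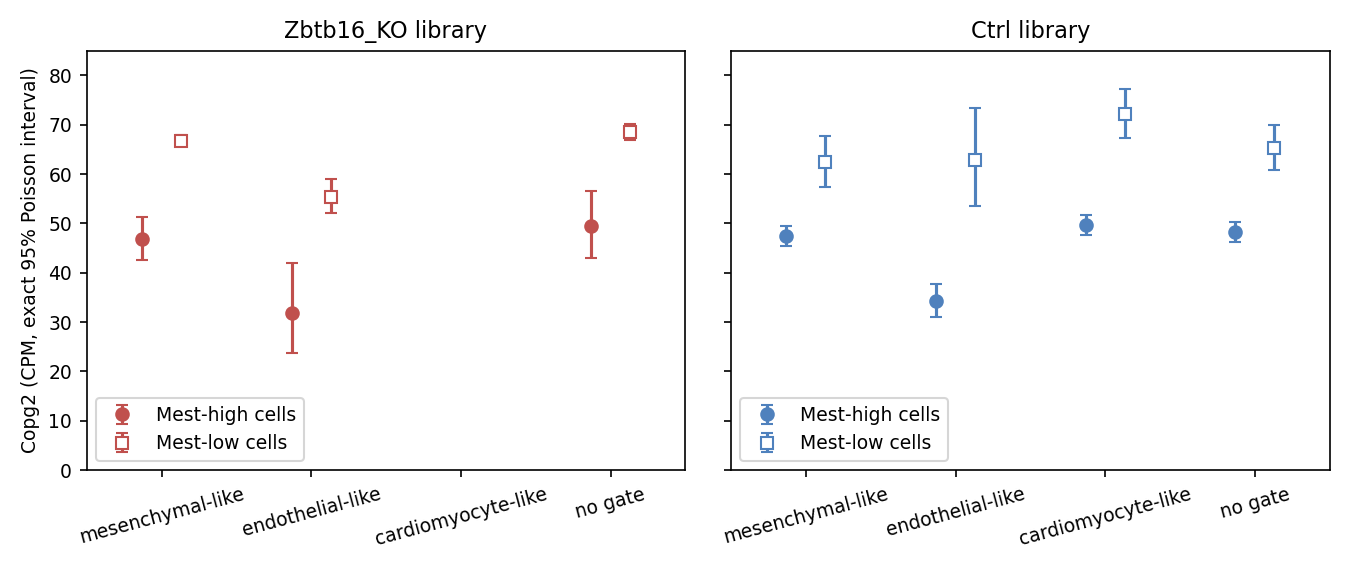
Copg2 in CPM (y axis, from 0; bars, exact 95% Poisson intervals) in Mest-high (filled) and Mest-low cells (open) of 4 gates, with the Zbtb16_KO library left and the Ctrl library right; the knockout cardiomyocyte-like gate, with 7 Mest-high cells, is not drawn. In each gate drawn the Mest-high value lies below the Mest-low value with intervals apart.

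Within a Mest class, the Copg2 intervals of the libraries overlapped over all cells and in mesenchymal-like and endothelial-like cells, but not in cardiomyocyte-like Mest-high cells. Mest-high cells had 47.1 CPM in Zbtb16_KO and 50.3 CPM in Ctrl (-0.09), and Mest-low cells had 65.6 and 66.7 CPM (-0.03), with overlapping intervals in both classes. Mesenchymal-like Mest-high cells had 46.8 CPM in Zbtb16_KO and 47.5 CPM in Ctrl (-0.02). Mesenchymal-like Mest-low cells had 66.8 and 62.4 CPM (0.10). Endothelial-like cells had 31.9 and 34.2 CPM when Mest-high (-0.10), and 55.4 and 62.9 CPM when Mest-low (-0.18). Cardiomyocyte-like Mest-high cells had 87.9 CPM in the 7 knockout cells (56.9 to 130) and 49.6 CPM in Ctrl (47.7 to 51.6), a ratio of 0.81 with intervals apart. The ratio between the libraries over all cells, 0.26, was larger than in either class.

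Over levels of Mest, Copg2 declined in steps in both libraries. Cells were split at 0.5, 2, 8, 16 and 32 CP10k of Mest, bounds chosen after the data were seen. In Zbtb16_KO, Copg2 stood at 65.6, 66.0, 56.4, 48.8, 45.1 and 40.7 CPM, lowest to highest Mest, in 8900, 113, 44, 128, 190 and 74 cells. In Ctrl it stood at 67.3, 65.6, 58.1, 52.6, 47.8 and 45.8 CPM, in 1042, 579, 1047, 1059, 1831 and 796 cells. Mesenchymal-like cells alone gave 66.9, 61.8, 60.6, 45.6, 46.2 and 37.6 CPM in Zbtb16_KO and 64.7, 55.7, 55.4, 46.6, 47.3 and 47.2 CPM in Ctrl. So the control mesenchymal-like values were level from 8 CP10k upwards, within their counting intervals.

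Neighbouring genes on chromosome 6 were read in the same mesenchymal-like cells. Of the neighbours measured at 5 CPM or more, Mest left out, 5 of 9 were lower in Mest-high cells in Zbtb16_KO with counting intervals apart, as were 5.39% of all 9918 genes. In Ctrl the count was 3 of 10, against 3.19% of 9910 genes. Their median log2 ratio was -0.17 in Zbtb16_KO and -0.19 in Ctrl, beside 0.01 and -0.0040 over all genes. None was higher with intervals apart in either library. The lower ones in Zbtb16_KO were Klf14, Copg2, Klhdc10, Cep41 and Tmem209, and in Ctrl Copg2, Klhdc10 and Zc3hc1.

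Klhdc10, a kelch-domain gene on the Mest side away from Copg2, had 74.1 CPM in Mest-high and 102.9 CPM in Mest-low mesenchymal-like cells of Zbtb16_KO (-0.47). In Ctrl it had 64.9 and 91.5 CPM (-0.49). Klf14 had 4.67 and 9.85 CPM in Zbtb16_KO (-0.94, from 44 and 1726 UMIs), and 3.48 and 5.45 CPM in Ctrl (-0.52), where the intervals overlapped. Cep41, a cilium gene next to Mest, had 17.5 and 22.9 CPM in Zbtb16_KO (-0.37) and 20.3 and 23.4 CPM in Ctrl (-0.20), where the intervals overlapped. Nrf1, Ube2h and Mkln1 lay between -0.08 and 0.11 in both libraries. Klhdc10 did not step down with Mest over all Ctrl cells: it stood at 66.1, 51.1, 39.4, 46.5, 56.0 and 71.3 CPM over the 6 Mest ranges.

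**Figure D4:**
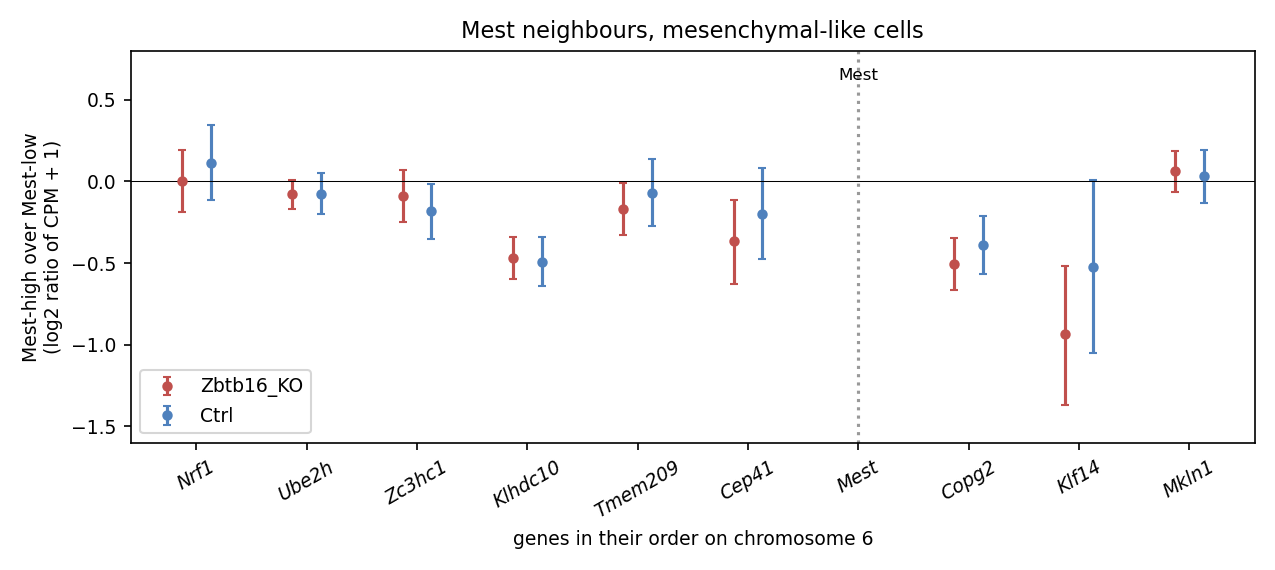
Log2 ratio of CPM plus 1 in Mest-high over Mest-low mesenchymal-like cells (y axis) for neighbours measured in both libraries, in their order on chromosome 6 (x axis), Zbtb16_KO left of Ctrl; bars span the widest ratios the 2 exact 95% Poisson intervals allow, and the dotted line marks Mest. Copg2 and Klhdc10 lie between -0.50 and -0.39 in both libraries, while Nrf1, Ube2h and Mkln1 lie near 0.

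Over all cells of a Mest class, Klf14 and Klhdc10 remained higher in the knockout. Klf14 had 8.34 CPM in Mest-low Zbtb16_KO cells and 1.98 CPM in Mest-low Ctrl cells. Klhdc10 had 96.0 and 61.1 CPM in Mest-low cells, and 73.8 and 53.7 CPM in Mest-high cells, Zbtb16_KO given first. Within mesenchymal-like cells the Klhdc10 gap was smaller, with ratios of 0.17 in Mest-low and 0.19 in Mest-high cells and intervals apart, beside 0.64 and 0.45 over all states. Klf14 in mesenchymal-like Mest-low cells had 9.85 and 5.45 CPM (0.75), with intervals apart. In mesenchymal-like Mest-high cells it had 4.67 CPM in Zbtb16_KO (3.39 to 6.27) and 3.48 CPM in Ctrl (2.96 to 4.08), with overlapping intervals. In all cells, 3 of the 12 neighbours measured passed 1.5-fold upwards in the knockout (12.7% of all genes): Klf14 (8.15 against 1.69 CPM), Klhdc10 (94.99 against 55.4) and Ube2h (150.2 against 84.9). Mest passed it downwards, as did the carboxypeptidase gene Cpa1 (0.496 against 5.96 CPM). The microRNA gene Mir335, which lies in an intron of Mest, and the antisense transcript Copg2os2 were not analysed here.

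The other coatomer genes did not share the drop of Copg2 with Mest. Of 9 coatomer genes in knockout mesenchymal-like cells, Copg2 was the one lower in Mest-high cells, while Copa (224 against 212 CPM) and Copb1 (233 against 213 CPM) were higher with intervals apart, as were 5.19% of all genes. In Ctrl, Copg2 was again the one lower and 0 were higher, as were 2.54% of all genes. The median over the 9 was 0.07 in both libraries. The paralog Copg1 had 91.8 CPM in Mest-high and 87.1 CPM in Mest-low cells of Zbtb16_KO, and 92.9 and 88.3 CPM in Ctrl.

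Between the libraries, 2 of 9 coatomer genes passed 1.5-fold upwards in the knockout and 0 downwards, against 12.7% and 6.75% of all genes: Arcn1, the delta subunit, with 141.8 against 72.0 CPM, and Copa, the alpha subunit, with 195 against 114 CPM. Copb1 (204 against 141 CPM), Copb2 (241 against 172), Copz2 (42.2 against 34.9), Copz1 (136 against 160.1) and Cope (63.9 against 90.2) stayed under that fold. Their median log2 ratio was 0.27, beside 0.02 over all genes. Among 15 genes that work with the coat, 1 passed upwards and 0 downwards, against the same 12.7% and 6.75%, with a median of -0.02; the most abundant were the GTPase genes Arf1 (590 against 581 CPM) and Arf4 (370 against 344 CPM) and the cargo receptor gene Tmed2 (348 against 358 CPM). Of 14 genes of the hydrolase fold family of Mest, 10 were measured and 0 passed in either direction, with a median of -0.17. Their most abundant members were Abhd12 (32.2 against 33.3 CPM), Abhd8 (19.4 against 26.4) and Abhd10 (20.8 against 21.7).

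The genes that set Mest-high knockout cells apart were few, and most of the leading ones are imprinted. In knockout mesenchymal-like cells, 6 of 6450 genes (0.093%) were at least 1.5-fold higher in Mest-high cells, Mest included, and 2 (0.031%) were lower. Plagl1, a paternally expressed zinc finger gene, had 190 CPM in Mest-high and 15.98 CPM in Mest-low cells (3.49). H19, a maternally expressed noncoding RNA, had 106 and 11.3 CPM (3.13). Nnat, a paternally expressed membrane protein gene, had 95.8 and 25.5 CPM (1.87). The homeobox gene Rhox5 (49.96 and 30.9 CPM) and the retinoid carrier gene Crabp2 (31.1 and 20.03 CPM) completed the 6, and Hpgd and Nrk came next, under 1.5-fold.

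Grb10, a maternally expressed inhibitor of growth factor signalling in most mouse tissues, was the lowest, with 190 CPM in Mest-high and 571 CPM in Mest-low cells (-1.58). Gas6, a receptor ligand gene, followed with 127 and 193 CPM (-0.60), and Zim1, a maternally expressed zinc finger gene, with 20.9 and 30.1 CPM (-0.51). Copg2 and Klhdc10 had ranks 4 and 5, before Cd59a, Zfp185 and Ggta1. Airn, the paternally expressed noncoding RNA opposite Igf2r, lay just under the 20 CPM floor and was added after its values were seen. It had 19.8 CPM in Mest-high and 1.90 CPM in Mest-low cells (2.84). Igf2r, which Airn is known to silence in mouse, had 800 and 1061 CPM (-0.41).

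**Figure D5:**
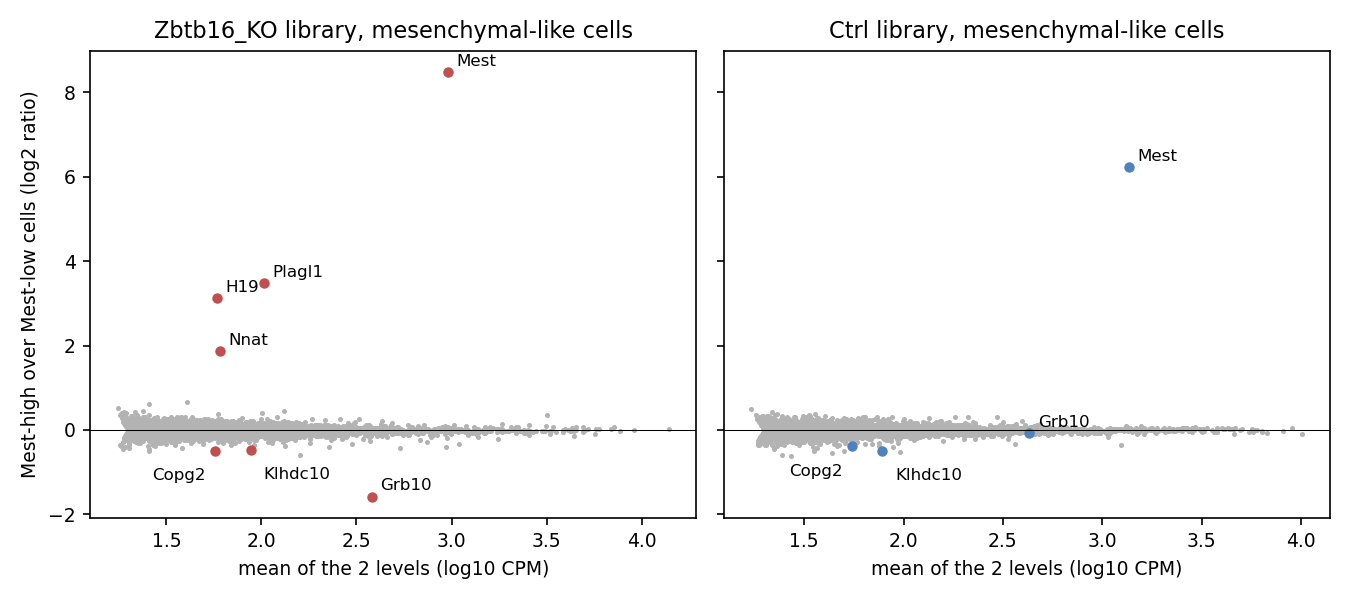
Log2 ratio of CPM plus 1 in Mest-high over Mest-low mesenchymal-like cells (y axis) against the mean of the 2 levels (x axis, log10 CPM), 1 point per gene at 20 CPM or more, Zbtb16_KO left and Ctrl right. Plagl1, H19, Nnat and Grb10 stand clear of the other genes in the knockout, while in the control Mest alone does among genes at that level; Mest is high by the way the cells were divided.

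In control mesenchymal-like cells these ratios were smaller, while the summed level of H19 differed as much among control cells in no gate. Of 6250 genes in control mesenchymal-like cells, 1 was at least 1.5-fold higher in Mest-high mesenchymal-like cells (Mest itself, 0.016%) and 1 lower (Kdr, 21.2 and 32.9 CPM, 0.016%). Grb10 had 418 CPM in Mest-high and 442 CPM in Mest-low Ctrl cells (-0.08), Airn 33.4 and 31.2 CPM (0.10), and H19 5.28 and 2.51 CPM (0.84, from 235 and 23 UMIs). Nnat had 3.03 and 0.872 CPM (1.11) and Plagl1 2.29 and 0.872 CPM (0.81), both with intervals apart, from 8 UMIs each in Mest-low cells. Control cells in no gate had H19 at 17.4 CPM when Mest-high and 1.06 CPM when Mest-low (3.16, from 863 and 13 UMIs). That ratio of sums was as large as in the knockout mesenchymal-like cells, and control cardiomyocyte-like cells had 12.1 and 3.27 CPM (1.62). Few control cells carried much H19: over all Ctrl cells, 52 of 4733 Mest-high cells reached 1 CP10k (1.10%, 0.822 to 1.44). Among Mest-low Ctrl cells, 10 of 1621 did so (0.617%, 0.296 to 1.13), with overlapping intervals. Whether the 2 libraries differ in these gaps could not be tested with 1 library each.

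Read by list, 10 of 14 paternally expressed genes measured in knockout mesenchymal-like cells were higher in Mest-high cells with intervals apart (5.19% of all genes) and 2 lower (5.39% of all genes). Their median was 0.29, beside 0.01 over all genes. Apart from those above, the ratios were modest: Peg3 had 3576 CPM in Mest-high and 2783 CPM in Mest-low cells (0.36), Dlk1 670 and 816 CPM (-0.28) and Igf2 2454 and 2688 CPM (-0.13). In Ctrl, 3 of 12 were higher (2.54% of all genes) and 2 lower (3.19% of all genes), with a median of 0.03. Of 10 maternally expressed genes, 5 were lower (5.39% of all genes) and 4 higher (5.19% of all genes) in Zbtb16_KO, with a median of -0.06. In Ctrl, 5 of 10 were lower (3.19% of all genes) and 1 higher (2.54% of all genes), with a median of -0.07. Intervals of abundant genes are narrow, so small ratios were counted too, such as -0.06 for Meg3 in Ctrl (1833 and 1917 CPM). Among genes of other imprinted regions of chromosome 6, 2 of 5 were higher in Zbtb16_KO (5.19% of all genes), with a median of 0.13. Those 2, Peg10 and Sgce, are also in the paternally expressed list and were already counted there. In Ctrl 0 of 5 were higher (2.54% of all genes), with a median of 0.03.

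Per cell, these genes too were on in some Mest-high cells and off in others. Over all Zbtb16_KO cells, Plagl1 reached 1 CP10k in 133 of 436 Mest-high cells (30.5%) and in 298 of 9013 Mest-low cells (3.31%). Nnat did so in 99 (22.7%) and 437 (4.85%), and H19 in 45 (10.3%) and 95 (1.05%). Grb10 was under 1 CP10k in 314 Mest-high cells (72.0%) and in 1577 Mest-low cells (17.5%). In Ctrl, Grb10 was under that level in 4.33% of Mest-high and 5.43% of Mest-low cells. Seen from the other side, 133 of the 431 knockout cells with Plagl1 were Mest-high (30.9%), as were 45 of 140 with H19 (32.1%) and 99 of 536 with Nnat (18.5%).

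The 4 features seldom came all together. Of Plagl1, H19 and Nnat on and Grb10 under 1 CP10k, 81 Mest-high knockout cells had none (18.6%), 202 had 1 (46.3%), 83 had 2 (19.04%), 57 had 3 (13.1%) and 13 had all 4 (2.98%). Among Mest-low knockout cells, 7102 had none (78.8%) and 8 had all 4 (0.0888%). Copg2 went with Mest more than with Grb10. In knockout mesenchymal-like cells with Grb10 under 1 CP10k, it stood at 44.5 CPM when Mest-high (39.1 to 50.4) and 64.9 CPM when Mest-low (61.8 to 68.2). With Grb10 at 1 CP10k or more, it stood at 50.1 CPM when Mest-high (43.3 to 57.7) and 67.1 CPM when Mest-low (65.8 to 68.4). Over Mest-low knockout cells of all states, Copg2 differed by Grb10 too, with intervals apart. It stood at 61.1 CPM with Grb10 under 1 CP10k (59.1 to 63.2) and 66.4 CPM otherwise (65.5 to 67.4). Mest-high knockout cells of all states gave 43.9 CPM (39.9 to 48.2) and 52.7 CPM (47.0 to 58.9), with overlapping intervals.

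Over all Zbtb16_KO cells, where the mix of states enters, 21 of 6449 genes (0.326%) were at least 1.5-fold higher in Mest-high cells and 19 (0.295%) lower. The lower ones were led by the embryonic globin genes Hba-x, Hbb-y and Hbb-bh1, the adult globin gene Hba-a1, the endoderm genes Spink1, Apob and Rbp4 and the pluripotency gene Dppa5a, whose states had 0 Mest-high cells. The higher ones, after Mest, Plagl1, H19 and Nnat, were the endothelial genes Cldn5 (20.4 and 9.85 CPM), Sox18 (35.8 and 17.8 CPM), Cdh5 (41.2 and 23.0 CPM) and Plvap (25.4 and 14.0 CPM).

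Set between the libraries over all cells, 6 of 14 paternally expressed genes passed 1.5-fold upwards in the knockout and 2 downwards, against 12.7% and 6.75% of all genes, with a median of 0.46 beside 0.02 over all genes. Igf2 had 2335 CPM in Zbtb16_KO and 563 CPM in Ctrl, Peg3 2517 and 1475 CPM, and Dlk1, which stayed under 1.5-fold, 679 and 617 CPM. Plagl1 (19.1 and 1.70 CPM) and Nnat (22.8 and 2.11 CPM), named above for Mest-high knockout cells, also passed upwards. The lower ones were Airn, with 2.54 and 33.9 CPM (-3.30), and Ndn, with 119 and 210 CPM (-0.82). Of 10 maternally expressed genes, 4 passed upwards and 0 downwards, against the same shares, with a median of 0.36; Igf2r had 899 and 279 CPM, Meg3 1558 and 1456 CPM, and Cdkn1c 517 and 665 CPM. On chromosome 6, Peg10 had 359 and 188 CPM and Asb4 51.3 and 117 CPM, and Sgce had 47.7 and 36.8 CPM.

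Across states of at least 50 cells, the genes whose log2 CPM followed Mest most closely were Hoxb5, Cep85l, Ptprd, Ccdc88a and Itm2a in Zbtb16_KO (Pearson r from 0.98 to 0.99 over 8 states). In Ctrl they were Baz1b, Ranbp3, Zbtb1, Usp34 and Rspo3 (7 states). Among the closest to Copg2 were Efnb3, Smc5, Cttnbp2 and Trafd1 in Zbtb16_KO and Ubb, Tcp11l1, Gadd45a, Nsrp1 and Zfp553 in Ctrl. Between Mest and Copg2 r was 0.77 over the knockout states and 0.12 over the control states. The states share a library, and with 7758 and 7233 genes ranked over so few states, high values arise for many genes, so these names are a description only.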

How the data were processed

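Single-cell libraries were made with an MGI DNBelab C Series kit, per the labels' protocols. Values deposited by the authors are unnormalized UMI counts, 1 row per gene and cell barcode, written with Cell Ranger 4, per the file headers. The submitters' processing notes name Cell Ranger, R 4.1.1 and the builds GRCm39 and mm39; sequences shown here are on GRCm38.p6, and no other coordinates are given. How 16-base barcodes arose from this kit, and the gene annotation and strand of counting, are stated nowhere in the labels or headers.

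Barcodes with at least 15000 UMIs and at most 10% mitochondrial UMIs were kept; nothing was removed as a doublet, and no caller was run. Counts were summed per library and state and scaled to CPM; log2 ratios used CPM plus 1. Poisson and Clopper-Pearson intervals are exact, at 95%, and cover counting error only, since 1 library per group leaves no replicate. Genes entered list counts at 5 CPM and all-gene rankings at 20 CPM. The 88 markers of 10 states gated cells. Named genes were Mest, Copg2, Zbtb16, the coatomer and neighbour genes, up to 3 abundant members of each other list, the 5 closest to each of Mest and Copg2 across states, and the 8 largest differences each way between Mest-high and Mest-low knockout cells; others are said to have been added, and a few named by this rule are not reported here. The members, gene lists and gates were chosen with earlier results of these data known, and the division at 2 CP10k and the Mest ranges after the values were seen. Thinning was without replacement. Python 3.11.15 with numpy 2.4.6, scipy 1.17.1 and pandas 2.3.3 was used, and edgeR 4.0.16 in R 4.3.3 for TMM scaling as an alternative. Ratios of sums and the share of cells above the division were tested on simulated data, while the intervals were not. Alternatives covered depth, mitochondrial limit, weighting, scaling, prior, free RNA, gates, division, filters, shared barcodes and the deepest cells.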

Additional observations from a re-analysis of the deposited data

How the results depend on the processing

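No paired analysis was possible because there is a single library of each genotype and nothing was tested. Of 112 alternative values, 93 stayed within the counting interval or within 1.5 times the count, and 19 moved. The log2 ratios among them kept their sign, while shares and counts have no direction to change. The log2 ratio of Mest (-4.06) was -4.29 with at least 30000 UMIs per cell, -4.14 with at most 5% mitochondrial UMIs, -3.84 with equal weight per cell and -3.96 without the 5% of cells with the most UMIs. The share of cells at 0 became 92.1% and 93.7% in Zbtb16_KO, and 16.6% and 21.9% in Ctrl, when thinned to 10000 and 5000 UMIs, as fewer molecules are drawn. The share of Mest-low Ctrl cells (24.7% when thinned) was 21.2% with the division at 1 and 31.2% at 4 CP10k, and the Mest-high Ctrl share was 77.1% with at least 30000 UMIs. With the marker level at 0.5 CP10k the ratio of Mest was -3.80 in cardiomyocyte-like and -4.49 in mesenchymal-like cells, and at 2 CP10k it was -6.00 in cardiomyocyte-like cells. The count of genes lower in the knockout (695) was 1081 without a filter and 345 at 20 CPM, where 1 neighbour was lower in place of 3. Klhdc10 in Mest-high over Mest-low knockout mesenchymal-like cells was -0.34 with at most 5% mitochondrial UMIs; apart from the filter on low values, which sets the number of genes counted, the cause was not tested. The ratio of Copg2 between libraries ranged from 0.22 to 0.28, and that between Mest classes from -0.51 to -0.42 in Zbtb16_KO and -0.43 to -0.37 in Ctrl. Depth limits the rare states: with 7 Mest-high knockout cardiomyocyte-like cells and 26 endothelial-like ones, their values are loose.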
